A study of Mus musculus with 18 samples.

Results

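The 10 genes described here encode membrane transporters for glucose (Slc2a1, Slc2a3 and Slc2a4) and for amino acids (Slc7a5, Slc3a2, Slc43a1, Slc1a5, Slc38a2, Slc38a5 and Slc6a9). They were taken by gene symbol from a count table of 54232 gene identifiers. Each symbol matched 1 identifier, and all 10 genes passed the filter on low counts and were tested. The assay was 4sU-seq, a measure of nascent RNA: cells take up the uridine analogue 4-thiouridine, and RNA made during a short labelling time is purified and sequenced. All cells came from fetal livers of C57BL/6 mouse embryos at e12.5 to e13.5. The lineage-negative cells were sorted into 5 erythroid populations by CD71, the transferrin receptor, and Ter119, a surface marker of maturing erythroid cells. The study's methods also describe a magnetic depletion of Ter119-stained cells before the sort, to enrich progenitors. S0-Low cells were CD71- Ter119-, S0-Medium cells were CD71 medium Ter119-, S1 cells were CD71 high Ter119-, S2 cells were CD71 high Ter119 medium and S3 cells were CD71 high Ter119 high. The study describes S0-Low as stem and progenitor cells with early erythroid burst-forming cells, S0-Medium and S1 as early and late erythroid colony-forming cells, and S2 and S3 as maturing cells. A sixth population, Lin+, held cells stained by antibodies to CD41, CD45R, CD3e, CD11b and Ly-6G/6C. Each population had 3 libraries, and neither the labels nor the study's methods say how many embryos went into a library or whether replicates came from separate litters. After sorting, all cells rested for 6 h in serum-containing medium and were then labelled with 500 µM 4sU for 45 min, so the values are those of cells in culture medium.

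Maturing erythroid cells make large amounts of hemoglobin, which needs amino acids for globin chains, glycine for heme and glucose as fuel. GLUT1 (Slc2a1), GLUT3 (Slc2a3) and GLUT4 (Slc2a4) let glucose cross the membrane down its gradient. Red cells of fetal and newborn mice are known to carry GLUT1, and GLUT4 is best known as the insulin-responsive transporter of muscle and fat. LAT1 (Slc7a5) exchanges large neutral amino acids such as leucine and works as a heterodimer with the heavy chain 4F2hc (Slc3a2, also called CD98), whereas LAT3 (Slc43a1) carries the same kind of amino acids without that chain. ASCT2 (Slc1a5) and the SNAT proteins (Slc38a2 and Slc38a5) carry neutral amino acids such as glutamine, and GlyT1 (Slc6a9) brings in glycine, a substrate of the first step of heme synthesis.

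The total count per library ranged from 9452476 in S0-Low replicate 3 to 40567976 in S1 replicate 1. Summed CPM (read counts scaled to a common library size with TMM factors) of 8 erythroid markers such as Klf1 and Slc4a1 rose from 532 to 1320 in S0-Low to 24900 to 44900 in S3, and was 326 to 369 in Lin+. Lin+ libraries are labelled as erythroblasts, but 9 neutrophil and myeloid precursor markers summed to 3120 to 5870 CPM there, against 410 to 832 in S0-Low and 0 to 1.58 in S3. Stem and progenitor markers summed to 1520 to 2310 CPM in Lin+, 1760 to 2560 in S0-Low and 28.3 to 29.8 in S3. Sums of macrophage, megakaryocyte, lymphoid and mast cell markers were also higher in Lin+ than in S0-Low without overlap, and those of hepatocyte markers were lower. In these bulk samples, fewer cells of a type and less RNA per cell cannot be told apart, and the part of such cells in the differences from S0-Low was not tested. On the first principal component of all tested genes, which held 52.73% of the variance, replicate 3 lay nearest the mature end in each of the 5 erythroid populations, and in S2 its erythroid markers summed to 14500 CPM against 5760 and 6540 CPM in the other libraries.

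Of the 10 transporter genes, 8 were higher in S3 than in S0-Low at an adjusted p under 0.05 (edgeR quasi-likelihood test, Benjamini-Hochberg over 16555 genes) and 0 were lower. Over all genes tested, 13.4% were called higher and 22.4% lower in this comparison. The 8 were Slc2a1, Slc2a4, Slc7a5, Slc3a2, Slc43a1, Slc1a5, Slc38a5 and Slc6a9, and the other two, Slc2a3 and Slc38a2, did not pass. The median log2 fold change of the 10 genes was 3.60, beside -0.54 over all genes tested. DESeq2 also called 8 higher and 0 lower, beside 2464 higher and 4814 lower of all genes, and in edgeR at an unadjusted p under 0.05 the count was also 8 and 0, against 47.4% of all genes in either direction. The CPM ranges of S3 and S0-Low did not overlap for 9 of the 10 genes, all higher in S3, against 16.6% of genes tested that were higher and 25.9% that were lower without overlap. Over any of the 5 populations, 8 members were called, against 24.6% of genes tested.

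**Figure D1:**
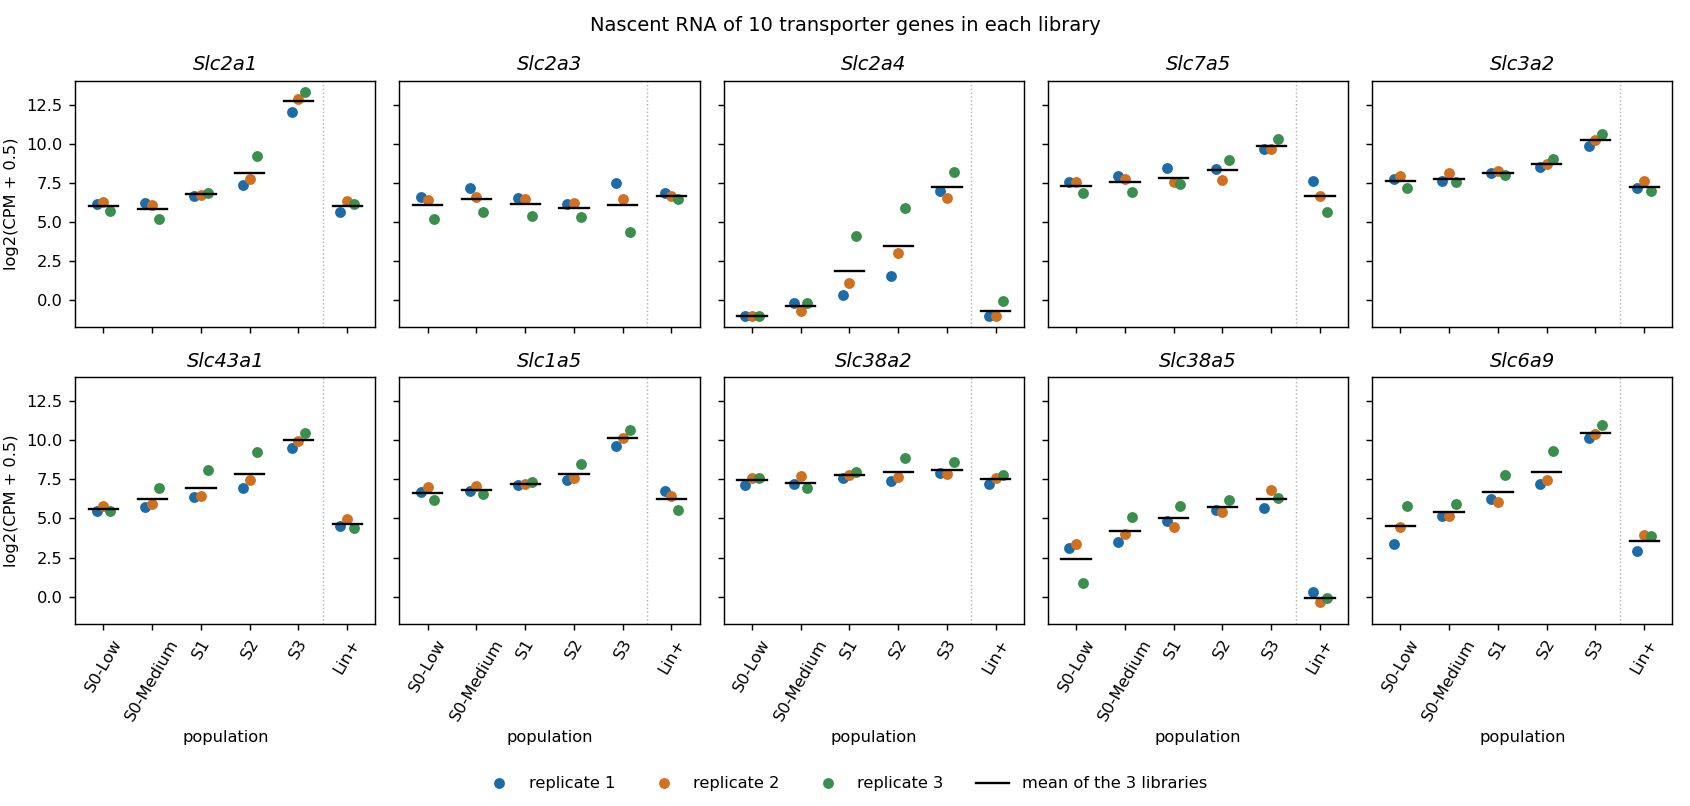
Nascent RNA of the 10 transporter genes by library, as log2(CPM + 0.5) on the y axis and population on the x axis. Points are libraries colored by replicate number and bars are means of 3 libraries. Slc2a1 stays between 35.7 and 116 CPM up to S1 and reaches 4168 to 10020 CPM in S3, whereas Slc2a3 spans 19.7 to 180.7 CPM within S3 alone and Slc38a5 is lowest in Lin+.

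Slc2a1 (ENSMUSG00000028645, chr4:119108745-119137330 in GRCm38) had the highest nascent level per length of the 10 genes in S3. In the 3 libraries of S0-Low it stood at 71.0, 78.4 and 51.4 CPM, in S0-Medium at 74.0, 67.0 and 35.7 CPM, and in S1 at 103, 106 and 116 CPM. S2 gave 165.7, 213.7 and 602.6 CPM and S3 gave 4168, 7534 and 10020 CPM. Every S3 library was above every library of the other populations, and the 3 S2 libraries were spread widely, with replicate 3 highest. The mean of 7242 ± 2939 CPM in S3 (SD, n = 3) was 108-fold that in S0-Low and 22.1-fold that in S2 (327.3 ± 239.6 CPM). The log2 fold change was 6.76 ± 0.58 (SE, adjusted p = 2.27e-06) from S0-Low and 4.47 ± 0.52 (adjusted p = 0.000217) from S2. On the log2 scale, 66.1% of the rise from S0-Low to S3 fell in the step from S2 to S3, which was 5.25 without S2 replicate 3. Reads of Slc2a1 made up 0.466% of all counts in S3, and by CPM per kb of exon the gene ranked 18 of 32651 genes there, against 2681 in S0-Low.

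Slc2a4 (ENSMUSG00000018566, chr11:69942286-69948216) had 0 counts in all 3 S0-Low libraries. Its level was 0.394, 0.117 and 0.381 CPM in S0-Medium, 0.788, 1.70 and 16.8 CPM in S1, 2.50, 7.72 and 58.0 CPM in S2, and 123.9, 93.2 and 287.5 CPM in S3. The S3 libraries lay above all others, and replicate 3 stood well above replicates 1 and 2 in S1 and S2. Against a floor of 3 counts per S0-Low library, the S3 mean of 168.2 ± 104.5 CPM was at least 1258-fold higher (adjusted p = 0.000215). This bound was 812-fold without S3 replicate 3 and 2209-fold without S0-Low replicate 3, the shallowest library. The step from S2 to S3 was 7.40-fold and did not pass the test (log2 fold change 2.89 ± 1.17, adjusted p = 0.134). It did pass with the replicate number as a block (3.73, adjusted p = 0.00578). Without S2 replicate 3 the log2 fold change of Slc2a4 in this step was 5.03, and it was 2.25 without S3 replicate 3.

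Slc2a3 (ENSMUSG00000003153, chr6:122727809-122802363) did not pass the test in any comparison. It stood at 96.0, 84.8 and 35.8 CPM in S0-Low, 143.3, 96.3 and 49.9 CPM in S0-Medium, 93.4, 88.3 and 40.8 CPM in S1, 69.7, 72.3 and 39.5 CPM in S2, and 180.7, 89.7 and 19.7 CPM in S3. The ranges of all neighboring populations overlapped, and the 3 S3 libraries differed more from each other than the population means did. The log2 fold change from S0-Low to S3 was 0.42 ± 0.62 (adjusted p = 0.620), and it was -0.30 with library totals in place of TMM. Replicate 1 was highest in 4 of the 5 populations and replicate 3 in 0, the reverse of Slc6a9, in which replicate 3 was highest in 5 of 5, as it was in 5.03% of genes tested. The summed neutrophil and myeloid precursor markers were, like Slc2a3, highest in replicate 1 and lowest in replicate 3 of S0-Low (832, 497 and 410 CPM), S0-Medium (181, 26.1 and 11.2 CPM), S1 (1.63, 0.991 and 0.634 CPM) and Lin+ (5870, 3830 and 3120 CPM). This order did not hold in S2 (0, 0.373 and 0.275 CPM) or S3 (0.303, 1.58 and 0 CPM). Their part in the Slc2a3 values was not tested.

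Because a ratio within a library does not depend on how libraries are scaled, the 3 glucose transporter genes were also compared as shares of their summed CPM per kb. Slc2a1 made up 71.3 ± 6.72% of the S0-Low sum and 61.5 ± 4.26% of the S0-Medium sum (SD, n = 3). Its share was then 75.2 ± 2.43% for S1, 86.4 ± 2.33% for S2 and 97.0 ± 1.41% for S3. Slc2a3 made up 28.7 ± 6.72% in S0-Low and 0.722 ± 0.810% in S3. Every S3 library gave a higher share to Slc2a1 than any other library. Slc2a4 reached 11.3% in S1 replicate 3 and 8.64% in S2 replicate 3 and lay between 1.23% and 2.86% in the S3 libraries. The log2 ratio of Slc2a3 to Slc2a1 was 0.434, 0.114 and -0.519 in S0-Low and -4.52, -6.38 and -8.96 in S3, a difference of -6.63 with no overlap between the groups (exact permutation test over libraries, two-sided, p = 0.1, the smallest that 3 against 3 allows). It was -7.68 without S3 replicate 1 and -5.46 without S3 replicate 3.

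**Figure D2:**
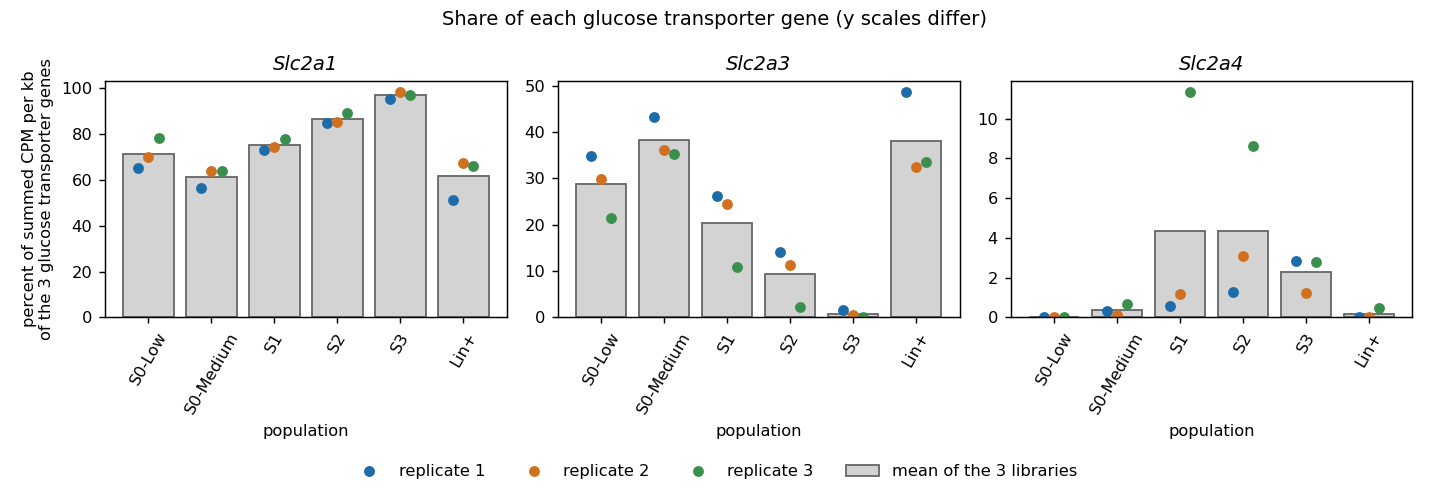
Share of Slc2a1, Slc2a3 and Slc2a4 in the summed CPM per kb of the 3 genes, in percent on the y axis (scales differ between panels) and by population on the x axis. Bars are means of 3 libraries and points are libraries. The Slc2a1 share rises from 61.5% in S0-Medium to 97.0% in S3 as that of Slc2a3 falls from 38.2% to 0.722%.

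The promoter windows of Slc2a1, Slc38a5 and Slc38a2 are shown because they are the called genes with the largest (66.1%) and smallest (16.7%) part of the log2 rise in the last step, Slc2a4 aside, and a gene that did not pass. Each is the 250 bases before the RefSeq start in GRCm38.p6, 5′ to 3′ on the gene's strand, with matches to CCNCNCCC on either strand in capitals. This pattern covers CACCC-type boxes, which erythroid KLF factors are known to bind, and overlaps GC boxes. Of the 8 windows listed for 6 members, 7 held a match, against 45.9% of 32851 promoter windows of the same length. Of these 7, 3 are windows of Slc6a9. The 8 windows were 53.6 to 72% GC, and the share over all windows was not matched for GC content. The Slc38a5 window held 9 matches, 8 of them overlapping in 1 stretch, the Slc2a1 window 2 and the Slc38a2 window 4. The GATA patterns AGATAA and TGATAA were searched on both strands and matched in 0 of the 8 windows, against 16.6% of all windows. Windows are at chr4:119108495-119108744 (plus strand), chrX:8271131-8271380 (plus strand) and chr15:96699729-96699978 (minus strand).
Slc2a1: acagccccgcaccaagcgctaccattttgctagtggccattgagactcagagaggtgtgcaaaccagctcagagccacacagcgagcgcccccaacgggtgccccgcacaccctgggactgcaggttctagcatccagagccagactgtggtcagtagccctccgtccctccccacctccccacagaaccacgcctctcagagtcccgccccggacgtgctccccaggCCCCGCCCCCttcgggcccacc
Slc38a5: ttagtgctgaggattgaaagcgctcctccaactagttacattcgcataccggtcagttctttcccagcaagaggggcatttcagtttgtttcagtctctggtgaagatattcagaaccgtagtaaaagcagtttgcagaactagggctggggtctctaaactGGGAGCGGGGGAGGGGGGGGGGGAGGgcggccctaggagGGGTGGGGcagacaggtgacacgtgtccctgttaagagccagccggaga
Slc38a2: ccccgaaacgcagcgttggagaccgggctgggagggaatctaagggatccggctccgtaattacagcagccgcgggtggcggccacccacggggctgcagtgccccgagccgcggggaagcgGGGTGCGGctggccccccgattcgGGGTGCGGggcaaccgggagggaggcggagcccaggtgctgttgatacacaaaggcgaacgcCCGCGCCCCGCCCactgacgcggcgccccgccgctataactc

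Both chains of the LAT1 heterodimer were higher in S3. Slc7a5 (ENSMUSG00000040010, chr8:121881146-121907686), the light chain that moves leucine, stood at 187.6, 189.2 and 115.2 CPM in S0-Low, 345.5, 184.5 and 173.5 CPM in S1, 337.2, 202.0 and 490.7 CPM in S2, and 794.3, 805.6 and 1235 CPM in S3. The S3 libraries lay above all others, while each of the earlier populations overlapped the next. Its mean in S3 was 5.76-fold that in S0-Low (log2 fold change 2.52 ± 0.41, adjusted p = 0.000326) and 2.75-fold that in S2 (1.47 ± 0.40, adjusted p = 0.0311). The call against S2 was lost in 5 of 15 alternatives, with library totals, with the 6 libraries alone and without S2 replicate 1, S2 replicate 2 or S3 replicate 3. Slc3a2 (ENSMUSG00000010095, chr19:8706882-8723369), the heavy chain that brings the light chain to the surface, stood at 212.7, 249.9 and 141.7 CPM in S0-Low, 280.4, 311 and 254.2 CPM in S1, 364.2, 412.5 and 513.5 CPM in S2, and 931.7, 1187 and 1568 CPM in S3. Its S1, S2 and S3 libraries were ordered without overlap. The mean was 6.10 times that of S0-Low (2.61 ± 0.31, adjusted p = 2.96e-05) and 2.86 times that of S2 (1.52 ± 0.30, adjusted p = 0.00615).

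The ratio of the 2 chains moved little. The log2 ratio of Slc7a5 to Slc3a2 was -0.180, -0.400 and -0.297 in S0-Low and -0.230, -0.559 and -0.344 in S3. These values overlapped, with a difference of -0.09 (exact permutation test, two-sided, p = 0.6). Per kb of exon, Slc3a2 was the highest of the 10 genes in S0-Low at 68.1 ± 18.6 CPM per kb, and also in S0-Medium, S1, S2 and Lin+. In S3 it was second at 415.5 ± 108.3 CPM per kb, behind Slc2a1 at 2538 ± 1030 CPM per kb. Slc3a2 shares 5.03% of its transcript 31-base words with other genes, so part of its reads could have been assigned elsewhere.

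Slc43a1 (ENSMUSG00000027075, chr2:84838855-84863586), which encodes the leucine carrier LAT3, rose in its mean at each of the 4 steps. It stood at 43.9, 55.3 and 44.4 CPM in S0-Low, 52.9, 61.0 and 124.4 CPM in S0-Medium, 81.7, 84.7 and 277.4 CPM in S1, 121.4, 172.0 and 606.5 CPM in S2, and 737.4, 968.7 and 1435 CPM in S3. Replicate 3 was highest in 4 of the 5 populations and in S0-Medium and S1 lay above replicates 1 and 2 of the next population. S3 was 21.9-fold above S0-Low (log2 fold change 4.45 ± 0.67, adjusted p = 0.000161). The step from S2 to S3 was 3.49-fold (1.81 ± 0.60, adjusted p = 0.0688), which passed with the replicate block (2.07, adjusted p = 0.00134) and was 2.83 without S2 replicate 3. By mean CPM per kb, Slc43a1 was below Slc7a5 in S0-Low, at 8.37 ± 1.12 against 46.7 ± 12.0, and nearer to it in S3, at 183.2 ± 62.2 against 268.9 ± 71.5.

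Slc1a5 (ENSMUSG00000001918, chr7:16781334-16798274), the gene of the glutamine exchanger ASCT2, was higher in S3 than in any other population. It stood at 104.5, 126.1 and 72.4 CPM in S0-Low, 108.1, 137.0 and 93.1 CPM in S0-Medium, 141.4, 145.9 and 161.6 CPM in S1, 176.4, 189.6 and 361.9 CPM in S2, and 804.0, 1109 and 1603 CPM in S3. S1, S2 and S3 each lay above the population before without overlap, while S0-Medium overlapped S0-Low. S3 was 11.6-fold above S0-Low (log2 fold change 3.54 ± 0.38, adjusted p = 1.25e-05) and 4.83-fold above S2 (2.28 ± 0.36, adjusted p = 0.00159). As with Slc2a1, most of the log2 rise (64.4%) lay in the last step.

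The SNAT genes differed in course. Slc38a5 (ENSMUSG00000031170, chrX:8271381-8280179) stood at 8.03, 9.67 and 1.33 CPM in S0-Low, 10.7, 15.9 and 34.0 CPM in S0-Medium, 28.1, 21.3 and 54.8 CPM in S1, 45.6, 42.4 and 71.3 CPM in S2, and 49.4, 113.4 and 79.6 CPM in S3. The S0-Low libraries lay below all libraries of later populations, but from S0-Medium to S3 each population overlapped the next. S3 was 12.7-fold above S0-Low (log2 fold change 3.66 ± 0.69, adjusted p = 0.000970), and the step from S2 to S3 was 0.61 ± 0.62 (adjusted p = 0.562), or 16.7% of the log2 rise. Slc38a2 (ENSMUSG00000022462, chr15:96687392-96699728), whose product SNAT2 is known as a transporter that cells raise when amino acids are short, stood at 137.3, 191.9 and 191.3 CPM in S0-Low and 236.6, 224.5 and 392.6 CPM in S3. These ranges did not overlap, but the log2 fold change of 0.71 ± 0.38 did not pass (adjusted p = 0.149) and was -0.17 with library totals. The log2 ratio of Slc38a5 to Slc38a2 was -4.01, -4.24 and -6.71 in S0-Low and -2.25, -0.982 and -2.30 in S3, a difference of 3.15 without overlap (exact permutation test, two-sided, p = 0.1, the smallest possible), which was 2.29 without S0-Low replicate 3.

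**Figure D3:**
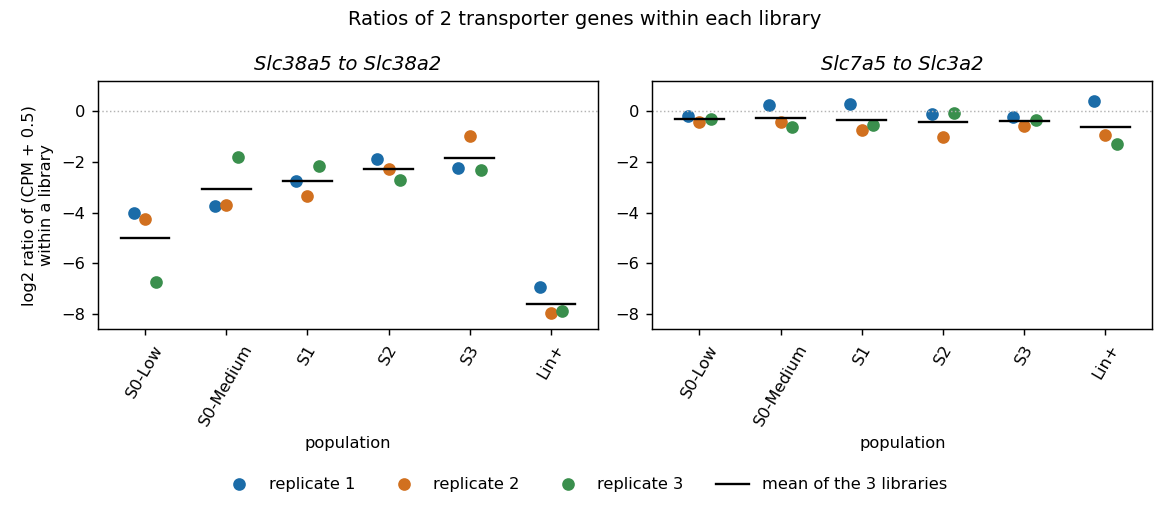
Log2 ratios within a library of Slc38a5 to Slc38a2 and of Slc7a5 to Slc3a2 on the y axis, from CPM + 0.5, by population on the x axis. Points are libraries colored by replicate number and bars are means of 3. The SNAT ratio rises from a mean of -4.99 in S0-Low to -1.84 in S3 and is -7.59 in Lin+, while the LAT1 to 4F2hc ratio has means of -0.293 and -0.378. In Lin+, Slc38a5 lay at 0.276 to 0.707 CPM, near the added 0.5, so the value of -7.59 depends on that addition.

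Slc6a9 (ENSMUSG00000028542, chr4:117835258-117869305), the glycine transporter gene, showed the third largest rise. It stood at 9.66, 21.6 and 53.9 CPM in S0-Low, 35.4, 34.8 and 60.4 CPM in S0-Medium, 76.6, 66.2 and 217.9 CPM in S1, 146.4, 175.3 and 636.8 CPM in S2, and 1104, 1324 and 1975 CPM in S3. S3 lay above all other populations, whereas S0-Low overlapped S0-Medium and S1 overlapped S2 through replicate 3. S3 was 51.7-fold above S0-Low (log2 fold change 5.69 ± 0.78, adjusted p = 8.04e-05) and 4.59-fold above S2 (2.21 ± 0.67, adjusted p = 0.0492). This last call was lost in 7 of 15 alternatives, with library totals, with the 6 libraries alone and without S2 replicate 1, S2 replicate 2 or any 1 of the S3 libraries. On the log2 scale 38.8% of the rise lay in the last step, but without S2 replicate 3 that step was 3.18 in place of 2.21. Without S0-Low replicate 3 the log2 fold change of Slc6a9 from S0-Low to S3 was 6.51. Of its transcript 31-base words, 30.4% also occur in other genes, 1372 of those 1389 in the overlapping gene Ccdc24, so the division of reads between both is uncertain. Ccdc24 itself was given at most 1.44 CPM in any library.

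In the step from S2 to S3, 5 of the 10 genes passed the test, all higher, against 3.26% of genes tested called higher, 6.09% called lower and 9.35% in either direction. The CPM ranges did not overlap for 7 members, all higher, against 8.99% of genes higher and 14.2% lower. The 5 that passed were Slc2a1, Slc1a5, Slc6a9, Slc3a2 and Slc7a5, and Slc2a4 and Slc43a1 were the others without overlap. The replicate block called 7, adding Slc2a4 and Slc43a1, and the count without replicate 3 of every population was also 7. Calls over all genes rose as well in these fits, from 1548 to 3074 with the block and to 3259 without replicate 3. It was 3 without S2 replicate 1, without S2 replicate 2 or without S3 replicate 3, and 1, Slc2a1, in a fit of the 6 libraries alone. Calls over all genes fell in these fits too, to 698, 692 and 881, and to 98 of 11911 with the 6 libraries. In the 3 earlier steps edgeR called 0 members and 0 of all genes. At an unadjusted p under 0.05, 2 members passed in each: Slc2a4 and Slc38a5 from S0-Low to S0-Medium, Slc2a4 and Slc6a9 from S0-Medium to S1, and Slc2a1 and Slc6a9 on reaching S2, against 3.26%, 6.86% and 4.03% of all genes. CPM ranges that did not overlap, all higher in the later population, were seen for Slc2a4 and Slc38a5 in S0-Medium (against 5.21% of genes higher and 6.64% lower), for Slc2a1, Slc2a4, Slc6a9 and Slc1a5 in S1 (6.98% and 10.2%) and for Slc2a1, Slc3a2 and Slc1a5 in S2 (3.61% and 7.77%). DESeq2 called Slc2a4 from S0-Medium to S1 (log2 fold change 4.34, adjusted p = 0.0135) and no member in the other two, beside 47, 401 and 148 of all genes in the 3 steps. The mean CPM rose at each of the 4 steps for 7 of the 10 members, against 10.1% of genes tested, the exceptions being Slc2a1, Slc2a3 and Slc38a2.

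**Figure D4:**
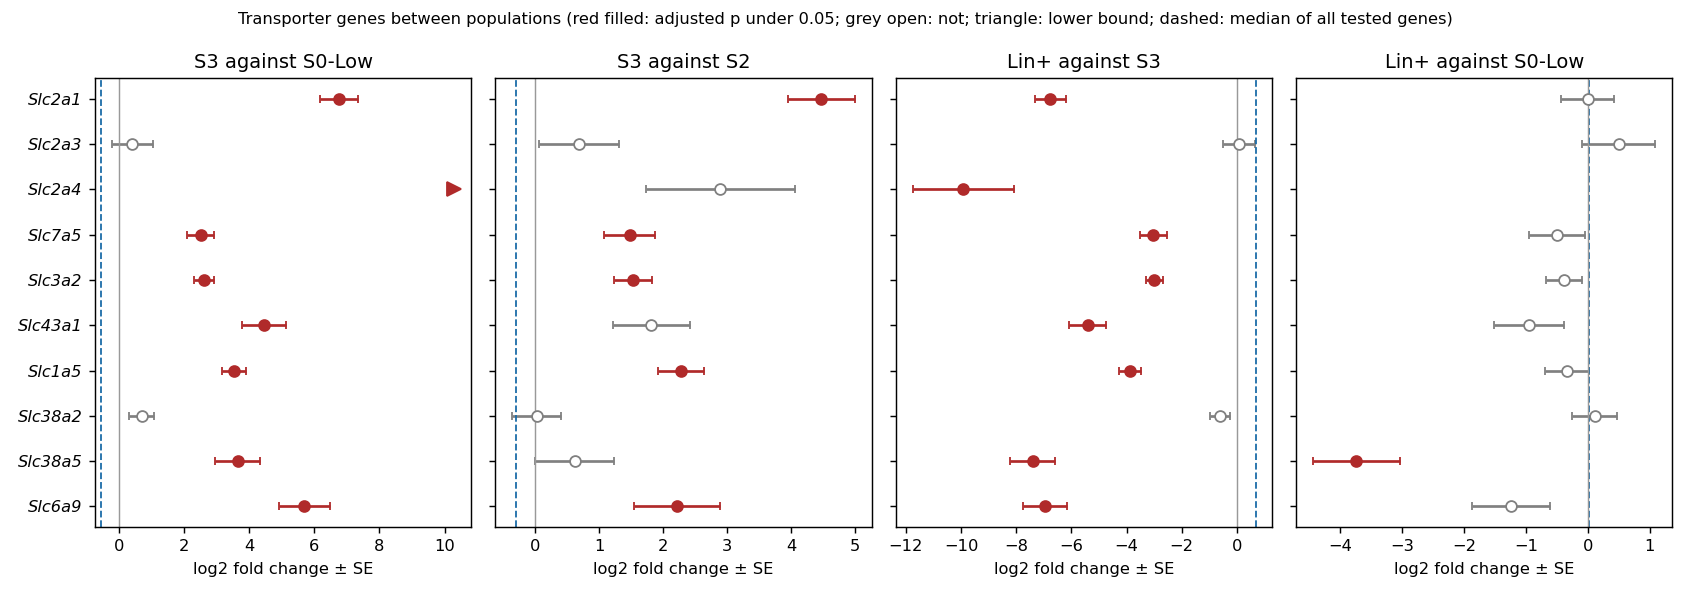
Log2 fold changes of the 10 genes with their SE on the x axis in 4 comparisons. Filled red points passed the test, open grey points did not, the triangle is the lower bound for Slc2a4, which is not drawn in Lin+ against S0-Low, and dashed lines are medians over the genes tested. In S3 against S0-Low, 8 genes lie between 2.52 and the bound for Slc2a4, and in Lin+ against S0-Low only Slc38a5 passed, at -3.74.

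Of the 10 genes, 1, Slc38a5, was lower in Lin+ than in S0-Low and 0 were higher, against 0.22% and 0.496% of 17755 genes tested (0.715% in either direction). At an unadjusted p under 0.05 the count was also 1, against 9.85% of all genes. Slc38a5 stood at 0.707, 0.276 and 0.456 CPM in Lin+, below every other library, and its log2 fold change from S0-Low was -3.74 ± 0.70 (adjusted p = 0.0142). This call was lost without any 1 of the Lin+ libraries or S0-Low replicate 2, at log2 values of -4.22 to -3.31 and adjusted p up to 0.112 over all alternatives. Slc38a5 and Slc43a1 were lower without overlap, against 6.96% of genes lower and 15.7% higher, but Slc43a1, at 22.0, 31.4 and 20.7 CPM, did not pass (-0.95 ± 0.56, adjusted p = 0.674). Slc2a1 stood at 48.5, 82.4 and 69.4 CPM in Lin+, overlapping both S0 populations, and Slc2a4 had 0, 0 and 23 counts. Between Lin+ and S3, 8 members were lower in Lin+ and 0 higher, against 14.1% and 28.2% of genes tested (42.2% in either direction, and 50.7% at an unadjusted p under 0.05, as for 8 members), and these were the 8 called in S3 against S0-Low. The 2 comparisons share the S3 libraries. Ranges did not overlap for 9 members, all lower in Lin+, against 17.3% of genes lower and 36.8% higher. Slc2a3, at 116.2, 100.5 and 89.3 CPM, and Slc38a2, at 147.4, 193.3 and 222.4 CPM, did not pass against S3 (log2 fold changes 0.08 ± 0.58 and -0.60 ± 0.36).

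Of 12 other genes of sugar transporter families, whose products do not all mainly carry glucose, 8 were tested in S3 against S0-Low. By edgeR 0 were higher at an adjusted or unadjusted p under 0.05 and 3 were lower (Slc2a6, Slc2a10 and Slc50a1, median log2 fold change over the 8 of -2.66). The shares over all genes tested, 13.4% higher and 22.4% lower with a median of -0.54, apply to this and the other wider lists in S3 against S0-Low. Slc50a1, which encodes the small sugar transporter SWEET1, stood at 19.1, 19.4 and 14.4 CPM in S0-Low and 0, 0.631 and 0 CPM in S3 (-6.28 ± 1.28, adjusted p = 0.00166) and was also lower in S3 than in S2 (-4.15 ± 1.17, adjusted p = 0.0365), a call lost without replicate 3 of every population. The size of both falls rests on S3 replicate 2, the only S3 library above 0 CPM. Of 35 other amino acid transporter genes, 25 were tested, with 6 higher and 11 lower and a median of -1.67. With library totals in place of TMM, 4 were higher and 11 lower with a median of -2.41, beside 1156 higher and 6228 lower of all genes. Slc16a10, a carrier of aromatic amino acids, stood at 136.9, 92.0 and 128.5 CPM in S0-Low and 2934, 4101 and 1557 CPM in S3, a 24.0-fold difference (4.59 ± 0.48, adjusted p = 1.05e-05), and rose from S2 as well (2.85 ± 0.44, adjusted p = 0.00141). Slc6a20a, a proline transporter gene, had at most 5 counts in S0-Low and stood at 26.4, 30.2 and 144.1 CPM in S3 (adjusted p = 0.00376). Slc7a2, a cationic amino acid transporter gene, stood at 4.65, 4.31 and 0 CPM in S0-Low and at 0 counts in every S3 library, at least 16.8-fold below (adjusted p = 0.0275). Slc7a8, whose product LAT2 is another light chain partner of 4F2hc, was at least 55.2-fold below its S0-Low level (adjusted p = 0.00683). From S2 to S3, Slc43a2, the gene of LAT4, rose (1.98 ± 0.55, adjusted p = 0.0355), a call lost with library totals, and Slc6a6, the taurine transporter gene, fell (-2.28 ± 0.51, adjusted p = 0.0120). With Slc16a10 this gave 2 higher and 1 lower of 25, beside 3.26% and 6.09% of all genes. The replicate block called 3 higher and 4 lower, and the fit without replicate 3 of every population 5 and 2. Calls over all genes were 3074 and 3259 in these fits against 1548.

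Among 10 genes for transporter partners and the next steps of glucose and glycine use, 6 were higher and 2 lower in S3 than in S0-Low, with a median of 1.33. With library totals in place of TMM, 3 were higher and 2 lower, beside 1156 higher and 6228 lower of all genes. Stom, a membrane protein known to bind GLUT1, stood at 24.4, 34.3 and 103.0 CPM in S0-Low and 598.7, 624.1 and 1101 CPM in S3, a 14.4-fold difference (3.85 ± 0.74, adjusted p = 0.00107) that was 26.4-fold without S0-Low replicate 3. Slc25a38, the mitochondrial glycine carrier gene of heme synthesis, stood at 31.2, 48.4 and 36.8 CPM in S0-Low and 281.0, 355.7 and 859.7 CPM in S3 (3.68 ± 0.71, adjusted p = 0.00109), 12.9-fold with all libraries and 8.21-fold without S3 replicate 3. S3 lay above S0-Low without overlap for both genes. Bsg, the chaperone of the lactate transporter MCT1, was called from S2 to S3 (1.53 ± 0.28, adjusted p = 0.00360), as 1 of the 10 beside 9.35% of all genes. With the replicate block Bsg and Stom were called, and without replicate 3 of every population Bsg, Stom and Txnip were called higher and Hk2 lower, with 3074 and 3259 of all genes called in these fits against 1548. The hexokinase genes, whose products trap glucose as glucose-6-phosphate, differed: Hk2 fell from 123.7, 131.5 and 40.8 CPM to 0, 4.10 and 14.3 CPM (-4.01 ± 1.35, adjusted p = 0.0308), and Hk1, named after its values were seen, rose from 396.1, 436.5 and 346.5 CPM to 828.1, 1086 and 649.6 CPM (1.12 ± 0.31, adjusted p = 0.0124). Hk2 was 16.1-fold lower with all libraries and 48.1-fold lower without S3 replicate 3. The Hk2 call was lost with the replicate block and the Hk1 call with library totals. Slc16a7, a monocarboxylate transporter gene, stood at least 98.3-fold below S0-Low (adjusted p = 0.00902).

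Of 20 genes that sense amino acids for the growth kinase mTORC1, 4 were higher and 4 lower in S3 than in S0-Low, with a median of 0.50, beside 13.4% and 22.4% of all genes. With library totals 3 were higher and 6 lower, and the median was -0.34. Rragd, a small GTPase gene of the lysosomal Rag complex, stood at 0.904, 0.524 and 0 CPM in S0-Low and 31.9, 33.9 and 69.0 CPM in S3 (94.4-fold, or 171.7-fold without S0-Low replicate 1, adjusted p = 0.00446). Sesn2, which encodes a leucine-binding inhibitor of this pathway, stood at 13.8, 20.7 and 19.4 CPM in S0-Low and 517.8, 513.1 and 397.5 CPM in S3 (26.5-fold, adjusted p = 0.000251). Rragb, another Rag GTPase gene, was at 14.5, 9.12 and 14.8 CPM in S0-Low and at 0 counts in every S3 library, at least 71.9-fold lower (adjusted p = 0.000204), and Castor2, of the arginine sensor family, was at least 63.7-fold lower (adjusted p = 0.00479). Rragb, Castor2 and Lamtor2, a subunit of the Ragulator scaffold, also fell from S2 to S3 (adjusted p = 0.00284, 0.0494 and 0.0104), and 0 genes of the list rose, beside 6.09% of all genes lower and 3.26% higher. With the replicate block 3 were called higher (Nprl3, Sesn2 and Sesn1) and 2 lower, without Castor2, beside 1208 higher and 1866 lower of all genes. Between Lin+ and S0-Low, edgeR called 0 genes in these 4 wider lists, and at an unadjusted p under 0.05 it passed 0 of 8, 3 of 25, 2 of 10 and 1 of 20, beside 9.85% of all genes. The replicate block called Hk1 lower, and the fit without replicate 3 of every population called Slc16a1 lower. Calls over all genes were 342 and 198 in these fits, against 127.

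**Figure D5:**
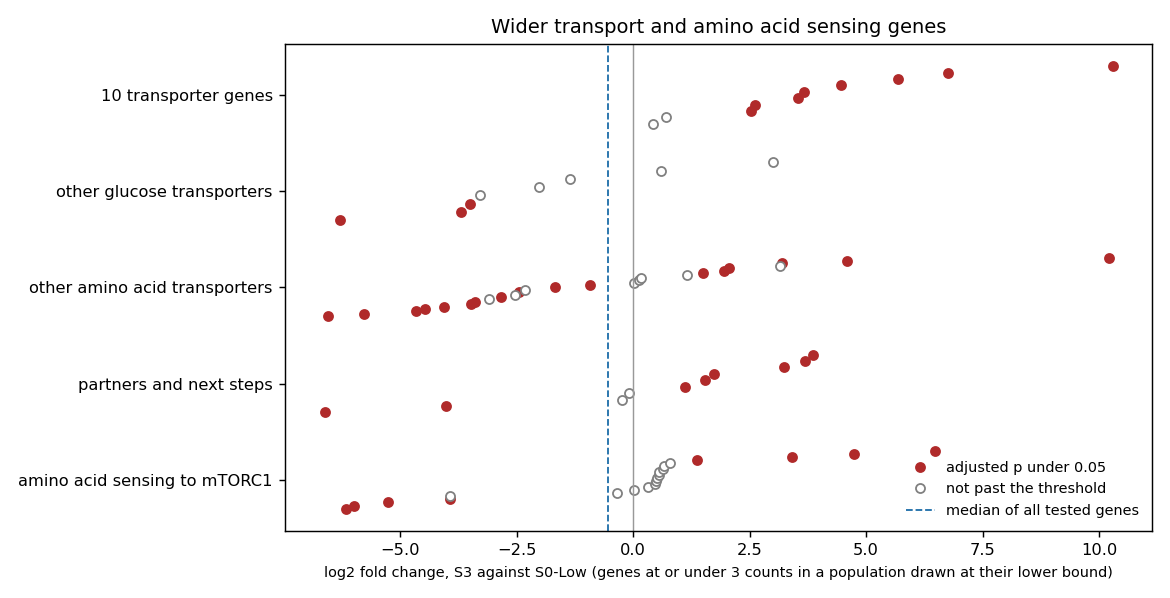
Log2 fold changes of S3 against S0-Low on the x axis for the 10 transporter genes and 4 wider lists, 1 point per tested gene. Filled red points passed the test, open points did not, and the dashed line at -0.54 is the median over the genes tested. The 10 genes lie above 0, whereas the other amino acid transporters lie on both sides with 6 called higher and 11 lower.

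Over the 15 erythroid libraries, the highest Pearson r of log2(CPM + 0.5) between members was 0.871, for Slc2a1 with Slc1a5, and r was 0.712 for Slc7a5 with Slc3a2. Slc2a3 had a negative r with each of the other 9 members. These libraries share the order of populations and the position of replicate 3, so r is given as a description only. Among 11214 other genes, the closest in pattern to Slc2a1 were 4930455G09Rik (r = 0.933) and AI848100 (r = 0.932), to Slc2a4 Dusp1 (r = 0.915) and Ctsb (r = 0.911), and to Slc2a3 Pkd1l3 (r = 0.878) and Clint1 (r = 0.859). Mkrn1 was among the closest 2 genes of both Slc1a5 (r = 0.876, with Kctd20 at 0.875) and Slc3a2 (r = 0.850, behind Tuba1c at 0.862). The closest genes were Tinagl1 (r = 0.824) for Slc43a1, Mgll (r = 0.828) and Grina (r = 0.825) for Slc6a9, Fam76b (r = 0.820) and Ppwd1 (r = 0.817) for Slc38a2, and Myo9a (r = 0.784) and Bmp2k (r = 0.780) for Slc7a5. Slc38a5 had the weakest, 1190002H23Rik (r = 0.599) and 6430550D23Rik (r = 0.596).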

How the data were processed

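Nascent RNA was sequenced in 18 libraries, 3 for each of 6 sorted populations, and groups and replicate numbers came from the submitted labels. The authors used a stranded total RNA kit with 14 PCR cycles, quantified reads with kallisto 0.43.0 (version and GRCm38 per the submitters' processing notes) and deposited whole-number counts per gene, not normalized. The transcript set and the treatment of introns are not given in the sources used here. Reads carry no molecular identifiers, so a floor of 3 counts covers counting error only.

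Counts were analysed with edgeR 4.0.16 and DESeq2 1.42.0 in R 4.3.3, and with pandas 2.3.3 and matplotlib 3.10.9 in Python 3.11.15. The 15 erythroid libraries entered 1 edgeR quasi-likelihood fit with population as factor (TMM, filterByExpr, 16555 genes, common biological coefficient of variation 0.795). All 18 entered that for Lin+ (17755 genes, 0.771). P-values were adjusted over all tested genes, with 0.05 as the threshold. They measure the spread between these libraries, which may be technical. SE is the log2 fold change over the square root of F. CPM values are scaled by TMM over 18 libraries. Lengths are union exons of Gencode vM1. Gene positions and promoters are from RefSeq GRCm38.p6. The build of the length table is older, and no coordinates were taken from it.

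Same-numbered libraries deviated together in each consecutive step and in Lin+ against S0-Low (every r over 0.1, from 0.171 to 0.553), and a fit with the replicate number as a block was run beside the reported fit, which has no block. They did so less in S3 against S0-Low (r from 0.084 to 0.134) and in Lin+ against S3 (0.091 to 0.160).

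The members, the wider lists and the tests were chosen with earlier results of these data known. From each wider list the 2 largest rises and 2 largest falls in S3 against S0-Low with at least 100 normalized counts were named, with every gene called in another step where 4 or fewer were. Alternatives were DESeq2, RLE factors, library totals, other filters, other fits, other pseudocounts or lengths, the replicate block and each library left out. Omission of replicate 3 of every population was chosen after seeing the data. Data were also simulated for the 15 erythroid libraries, from gene means and spread over all of them. Some genes were changed in S3, and S3 was tested against S0-Low (16091 genes tested). There 0% of 65 genes changed 2-fold, 9.09% of 66 changed 4-fold and 41.3% of 63 changed 16-fold were recovered. The changed genes were few beside the 5932 called in the real S3 against S0-Low test. For pattern likeness the 2 genes with the highest r were taken for each member, and 1 of these is not reported here.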

Additional observations from a re-analysis of the deposited data

How the results depend on the processing

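The counts of 8 in S3 against S0-Low, over any of the 5 populations and in Lin+ against S3 were 7 with at least 10 counts in every library, where Slc2a4 could not be tested, and 8 in each other alternative. In S3 against S2 the count of 5 became 3 with library totals, 1 with only the 6 libraries compared, and 3 to 7 with each library left out in turn. Calls over all genes in this step, 540 higher and 1008 lower, became 288 and 2264 with library totals. They were 75 and 23 with the 6 libraries, and 692 to 2375 in either direction with each library left out. In Lin+ against S0-Low the count of 1 became 0 with only the 6 libraries, and was 0 to 1 with each library left out. Calls over all genes in that comparison went from 127 to 573 with the 6 libraries, and to 42 to 69 with each library left out. With no filter 1 member was called in S0-Medium against S0-Low, 2 in S1 against S0-Medium and 1 in S2 against S1, beside 53, 327 and 77 of 28888 genes, and DESeq2 called 1 in S1 against S0-Medium. The Slc7a5 to Slc3a2 difference ranged from -0.16 to 0.01 with each library left out.

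Library totals moved the median log2 fold change of all genes in S3 against S0-Low from -0.54 to -1.36 and the split of calls from 2220 higher and 3712 lower to 1156 higher and 6228 lower. They turned Slc2a3 (-0.30) and Slc38a2 (-0.17) in that comparison, and Slc38a2 in S3 against S2 (-0.48) and in Lin+ against S3 (0.24). Slc38a2 in S3 against S2 was also -0.01 with at least 10 counts in every library and -0.02 with only the 6 libraries. Slc2a1 in Lin+ against S0-Low, -0.00 in the test reported, was 0.07 with DESeq2, RLE factors or no filter and 0.05 with at least 10 counts. Without replicate 3 of every population, Slc38a2 was 0.11 in S0-Medium against S0-Low and -0.16 in S2 against S1, and Slc2a3 was -0.32 in Lin+ against S3.

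With each library, or replicate 3 of every population, left out, uncalled log2 fold changes that changed sign ranged as follows. In S0-Medium against S0-Low they were -0.08 to 0.29 for Slc3a2, -0.05 to 0.32 for Slc1a5, -0.02 to 0.71 for Slc2a3, -0.02 to 0.44 for Slc7a5, -0.42 to 0.05 for Slc2a1 and -0.39 to 0.11 for Slc38a2. In S1 against S0-Medium they were -0.15 to 0.47 for Slc7a5. In S2 against S1 they were -0.32 to 4.19 for Slc2a4, -0.24 to 0.62 for Slc38a2 and -0.01 to 1.85 for Slc43a1. In S3 against S2 they were -0.30 to 0.60 for Slc38a2 and -0.16 to 1.15 for Slc2a3. In S3 against S0-Low they were -0.41 to 0.89 for Slc2a3. In Lin+ against S0-Low they were -0.19 to 0.18 for Slc2a1 and -0.03 to 0.26 for Slc38a2. In Lin+ against S3 they were -0.40 to 0.90 for Slc2a3.

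The replicate block changed the count of members called in S3 against S2 from 5 to 7 and in no other comparison, where it stayed at 0, 8 or 1, and it called 23, 57 and 0 of all genes in the first 3 steps. For the ratios, the paired differences were -0.09, 1.55, -6.63 and 3.15 for Slc7a5 to Slc3a2, Slc2a4 to Slc2a1, Slc2a3 to Slc2a1 and Slc38a5 to Slc38a2 (exact sign-flip test, p = 0.25, the smallest possible). The Slc2a4 to Slc2a1 difference was 3.86 with a pseudocount of 0.1 CPM and 0.56 with 1 CPM. The list counts of 3, 11, 2 and 4 lower genes became 0, 4, 0 and 0 with at least 10 counts in every library. This filter removes genes near 0 counts in S3, such as Slc7a2 and Rragb, before testing, so it cannot test their falls. Over all genes it called 1522 of 7873 lower, against 3712 of 16555. Per length of the longest transcript, S3 levels were 267 for Slc43a1, 422 for Slc6a9 and 418 CPM per kb for Slc1a5. In simulated data 0% of the 2-fold changes were recovered, so changes of that size could be missed. Adjusted p-values depend on how many genes change, and few were changed there, whereas 5932 of 16555 were called in S3 against S0-Low. The share recovered in the real test was therefore not measured. The library with the fewest counts, S0-Low replicate 3, had 9452476. The causes of the changes between alternatives were not tested.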
